A study of Mus musculus with 583 samples.

Results

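The mitochondrial genome of the mouse carries 37 genes, which are 2 rRNA genes, 13 protein-coding genes and 22 tRNA genes. They were found by their symbols, which start with mt-, among the 38924 mouse genes of the table, and all 37 have a row. The cells, mouse embryonic stem cells of the J1 line, were in 2i/LIF medium, which holds them in the naive state by LIF together with inhibition of the kinases MEK and GSK3. The same kind of cell was profiled with 6 single-cell RNA-seq methods, each in libraries A and B, which makes 12 libraries with 583 cells, and the comparisons ask how the methods differ. Smart-seq / C1, run on the Fluidigm C1 chip, and Smart-seq2 read transcripts along their full length and are given as read counts. In vitro transcription is the amplification of CEL-seq2, on the C1 chip, and of MARS-seq, and PCR that of Drop-seq, in droplets, and of SCRB-seq, on FACS-sorted cells. These 4 tag methods read the 3′ end of a transcript and are given as counts of unique molecular identifiers (UMIs), so a read and a UMI do not count the same thing. Nothing in the sources says that A and B came from separate cultures, so the p-values below measure the spread between these libraries only.

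Mitochondrial DNA is transcribed from both strands into long precursors. The tRNAs lie between most of the other genes, and cutting them out releases the rRNAs, which build the mitochondrial ribosome, and the mRNAs. The mRNAs encode core subunits of the respiratory chain and of the ATP synthase: mt-Nd1 to mt-Nd6 and mt-Nd4l belong to complex I, mt-Cytb to complex III, mt-Co1 to mt-Co3 to complex IV, and mt-Atp6 and mt-Atp8 to the ATP synthase. Most of the mRNAs receive a short poly(A) tail. In human cells the mRNA of the gene on the other strand, ND6, is known to lack a stable one. Pieces of mitochondrial DNA are also found inserted in nuclear chromosomes, and reads from a part that is the same in both match both places.

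Counts summed over the cells of a library ranged between 17630767 and 34984056 in the 4 full-length libraries and between 583302 and 2784441 in the 8 tag libraries, with 29 to 80 cells a library. All 8 naive stem cell markers had counts in all 12 libraries, with a summed level of 2735 to 7057 CPM, which are counts per 1000000 after scaling of the libraries. The summed markers of fibroblasts, primitive endoderm and trophectoderm reached at most 39.5, 34.4 and 82.6 CPM in any library. Cell labels found in both A and B numbered 41 for Smart-seq / C1, 66 for Smart-seq2, 26 for CEL-seq2, 19 for MARS-seq, 0 for Drop-seq and 21 for SCRB-seq, and in the plate and chip methods a label is a position or a barcode that can be used again. In Drop-seq A, 29 of 42 barcodes lay within 1 base of another barcode of the library, and in Drop-seq B 12 of 34 did. MARS-seq A and B stood apart from each other in the mitochondrial genes, as described first.

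The protein-coding genes took most of the mitochondrial counts in the full-length methods and CEL-seq2, and the rRNA genes took most of them in MARS-seq, Drop-seq and SCRB-seq. These are shares of counts, not of transcripts. mt-Co2, mt-Atp8, mt-Atp6 and mt-Co3 had few or no counts in any library, and mt-Nd3 and mt-Nd4l had none in the full-length libraries. The 13 protein-coding genes held 3.53 ± 0.473% of a cell's counts in Smart-seq / C1 and 1.97 ± 0.00806% with Smart-seq2 (mean ± SD of library medians, n = 2). They held 8.13 ± 0.329% in CEL-seq2, 0.994 ± 1.12% in MARS-seq, 0.766 ± 0.366% in Drop-seq and 1.55 ± 0.0750% in SCRB-seq. The 2 rRNA genes held 1.56 ± 1.24% in Smart-seq / C1 and 0.858 ± 0.0612% with Smart-seq2. Of the tag methods, they held 1.24 ± 0.0608% in CEL-seq2, 2.32 ± 2.50% in MARS-seq, 1.18 ± 0.00766% in Drop-seq and 3.91 ± 0.53% in SCRB-seq. The 22 tRNA genes stayed far below both, at 0.0107 ± 0.00489% in Smart-seq / C1 and 0.0169 ± 0.00244% with Smart-seq2. Among the tag methods they held 0.0106 ± 0.00485% in CEL-seq2, 0.00219 ± 0.00310% in MARS-seq, 0.0283 ± 0.0206% in Drop-seq and 0.00728 ± 0.000182% in SCRB-seq.

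**Figure D1:**
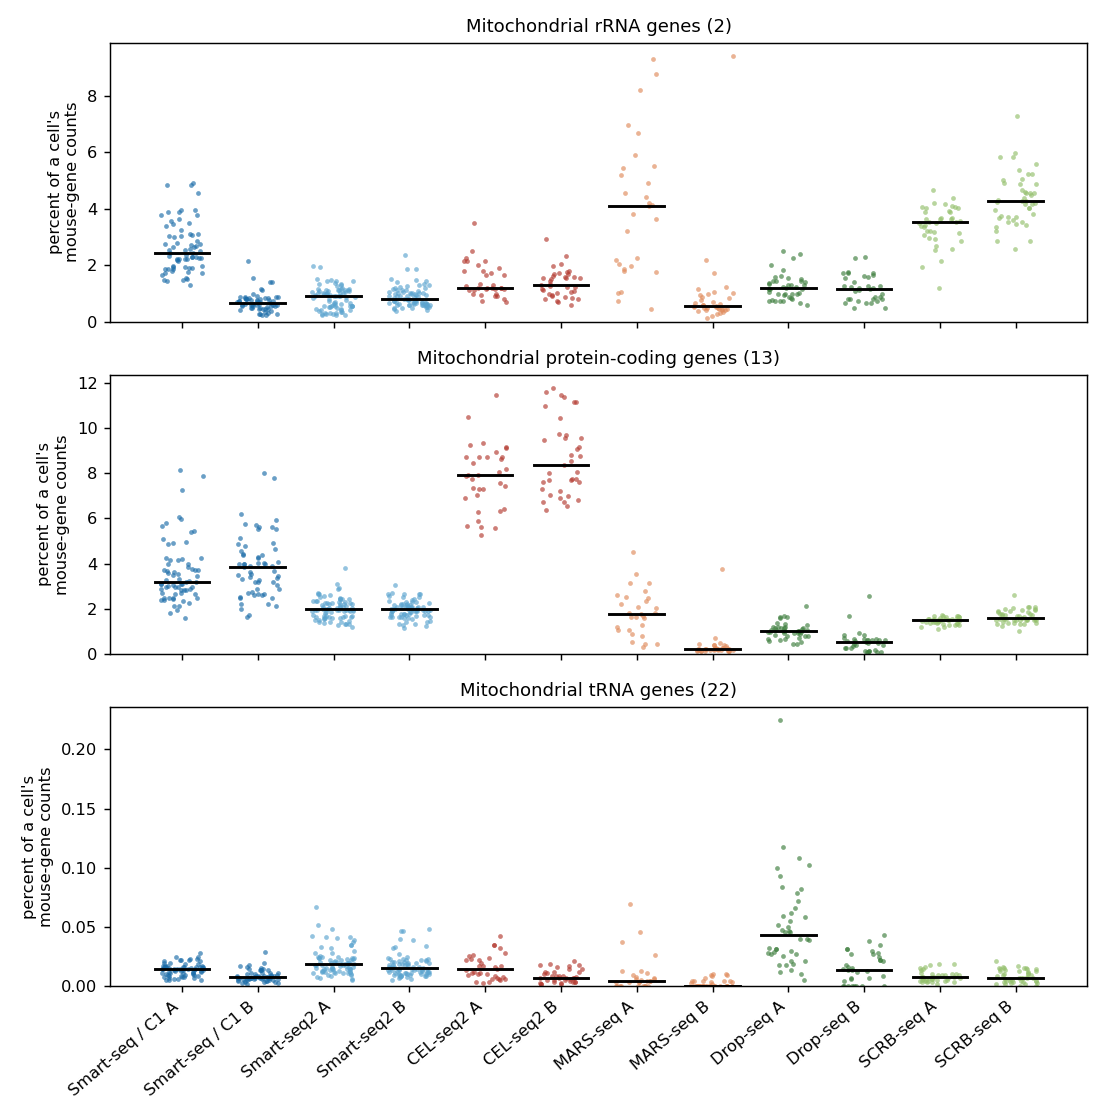
Percent of a cell's mouse-gene counts from the 2 rRNA, 13 protein-coding and 22 tRNA genes of the mitochondrial genome (y axes, each with its own scale), by library (x axis). Each point is a cell and each bar the median of a library. The CEL-seq2 cells stand highest for protein-coding genes, with library medians of 7.90% and 8.36%, the SCRB-seq cells have rRNA medians of 3.53% and 4.28%, and MARS-seq A lies above MARS-seq B for both classes.

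Libraries of 1 method could differ as much as methods did. The median rRNA share was 2.44% in Smart-seq / C1 A and 0.679% in Smart-seq / C1 B, while their median protein-coding shares were 3.20% and 3.86%. In MARS-seq, A and B differed in both classes, with 4.09% and 0.557% for rRNA and 1.79% and 0.201% for protein-coding genes. In CEL-seq2 A and B, by contrast, they were 1.20% and 1.28% for rRNA and 7.90% and 8.36% for protein-coding genes. The ratio of protein-coding to rRNA counts, summed over a library, was 1.37 and 5.58 in Smart-seq / C1 A and B, 2.39 and 2.29 in Smart-seq2, and 5.37 and 6.30 in CEL-seq2. It was 0.450 and 0.364 in MARS-seq, 0.854 and 0.466 in Drop-seq and 0.414 and 0.386 in SCRB-seq, so that these 6 libraries all lay below 1 and the other 6 above it. Smart-seq / C1 A lay below Smart-seq2 in this ratio and Smart-seq / C1 B within the range of CEL-seq2. The protein-coding genes with few or no counts add next to nothing to these sums, so the ratios are of counts and not of mRNA to rRNA. No test was made of these shares or ratios, since the genes were chosen with earlier results of these data known.

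The 2 rRNA genes did not keep a fixed ratio to each other. mt-Rnr1 (chrM:70-1024) encodes the 12S rRNA of the small subunit and mt-Rnr2 (chrM:1094-2675) the 16S rRNA of the large one. mt-Rnr1 had 4008 and 575 CPM in Smart-seq / C1 A and B, 944 and 658 CPM in Smart-seq2, 4430.5 and 2206 CPM in CEL-seq2, 8405 and 969 CPM in MARS-seq, 1105 and 1126 CPM in Drop-seq and 10709.5 and 16127 CPM in SCRB-seq. mt-Rnr2 had 19062 and 7129.6 CPM in Smart-seq / C1, 5982 and 7076 CPM in Smart-seq2, 10605 and 12035 CPM in CEL-seq2, 40168 and 9149.5 CPM in MARS-seq, 11296 and 10479 CPM in Drop-seq and 25447 and 28173 CPM in SCRB-seq. Thus mt-Rnr2 was above mt-Rnr1 in all 12 libraries, by a ratio of counts between 1.75 in SCRB-seq B and 12.4 in Smart-seq / C1 B. Smart-seq / C1 A stood above the other 3 full-length libraries in both genes.

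Among the protein-coding genes, mt-Nd1 and mt-Cytb took large shares in every method, while those of mt-Nd4, mt-Co1 and mt-Nd3 were high in some methods and low in others. mt-Nd1 made up 31.9 ± 3.63% of the protein-coding mitochondrial counts in Smart-seq / C1 and 32.5 ± 0.628% with Smart-seq2 (mean ± SD, n = 2 libraries). For the tag methods its share was 20.4 ± 3.77% in CEL-seq2, 18.6 ± 4.89% in MARS-seq, 26.2 ± 5.05% in Drop-seq and 26.4 ± 0.705% in SCRB-seq. mt-Nd4 made up 5.51 ± 1.64% in Smart-seq / C1 and 6.69 ± 0.310% with Smart-seq2, against 38.7 ± 5.89% in CEL-seq2, 25.3 ± 4.63% in MARS-seq, 16.1 ± 3.56% in Drop-seq and 18.9 ± 0.279% in SCRB-seq. mt-Co1 made up 20.1 ± 3.53% in Smart-seq / C1 and 20.8 ± 0.297% with Smart-seq2. Among the tag methods its share was 1.88 ± 1.13% in CEL-seq2 against 21.1 ± 0.323% in MARS-seq, and 7.01 ± 2.41% in Drop-seq and 13.7 ± 3.07% in SCRB-seq. mt-Nd3 made up 2.74 ± 1.09% in CEL-seq2, 0.0640 ± 0.0445% in MARS-seq, 7.62 ± 0.689% in Drop-seq and 0.535 ± 0.0716% in SCRB-seq. The share of mt-Cytb was highest at 29.8 ± 2.02% in Smart-seq / C1 and lowest at 13.7 ± 3.004% in MARS-seq, and that of mt-Nd5 between 5.35 ± 1.42% in CEL-seq2 and 9.41 ± 1.51% in MARS-seq.

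Levels of the rRNA and protein-coding genes were compared with each other as CPM per kilobase of gene (CPM/kb). The tRNA genes were left out of this order. A UMI counts a molecule once whatever its length, so in the tag methods this division raises short genes against long ones. In SCRB-seq, for example, mt-Rnr2 and mt-Rnr1 had means of 26810 and 13418 CPM before it, farther apart than per kilobase. The order within a tag method is thus one of CPM/kb, not of molecules. In Smart-seq2 the order was mt-Nd1 at 5833 ± 167 CPM/kb, mt-Cytb at 4257 ± 318 CPM/kb, mt-Rnr2 at 4127 ± 489 CPM/kb and mt-Co1 at 2313 ± 144 CPM/kb (SD, n = 2). mt-Cytb and mt-Rnr2 did not differ there by more than their spread. Smart-seq / C1 had the same first 4 genes in the same order, with mt-Nd1 at 12274 ± 1259 CPM/kb, and no neighbours among its first 9 genes differed by more than the larger of their SDs. In CEL-seq2 mt-Nd4 came first at 23806 ± 1850 CPM/kb, followed by mt-Nd1 at 18321 ± 4722 CPM/kb and mt-Cytb at 14196 ± 3834 CPM/kb, and mt-Rnr2 came below these at 7155 ± 639 CPM/kb. In Drop-seq mt-Rnr2 came first at 6882 ± 365 CPM/kb, and the following 9 of these genes, between mt-Nd1 at 2094 ± 583 CPM/kb and mt-Co1 at 391.5 ± 291 CPM/kb, each lay within the spread of the next. In SCRB-seq mt-Rnr2 at 16947 ± 1218 CPM/kb and mt-Rnr1 at 14050.3 ± 4011 CPM/kb came first, and mt-Nd1 followed at 4422 ± 534 CPM/kb. In MARS-seq, where A and B differed, mt-Rnr2 came first at 15587 ± 13864 CPM/kb and none of the first 10 genes was separated from the next.

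**Figure D2:**
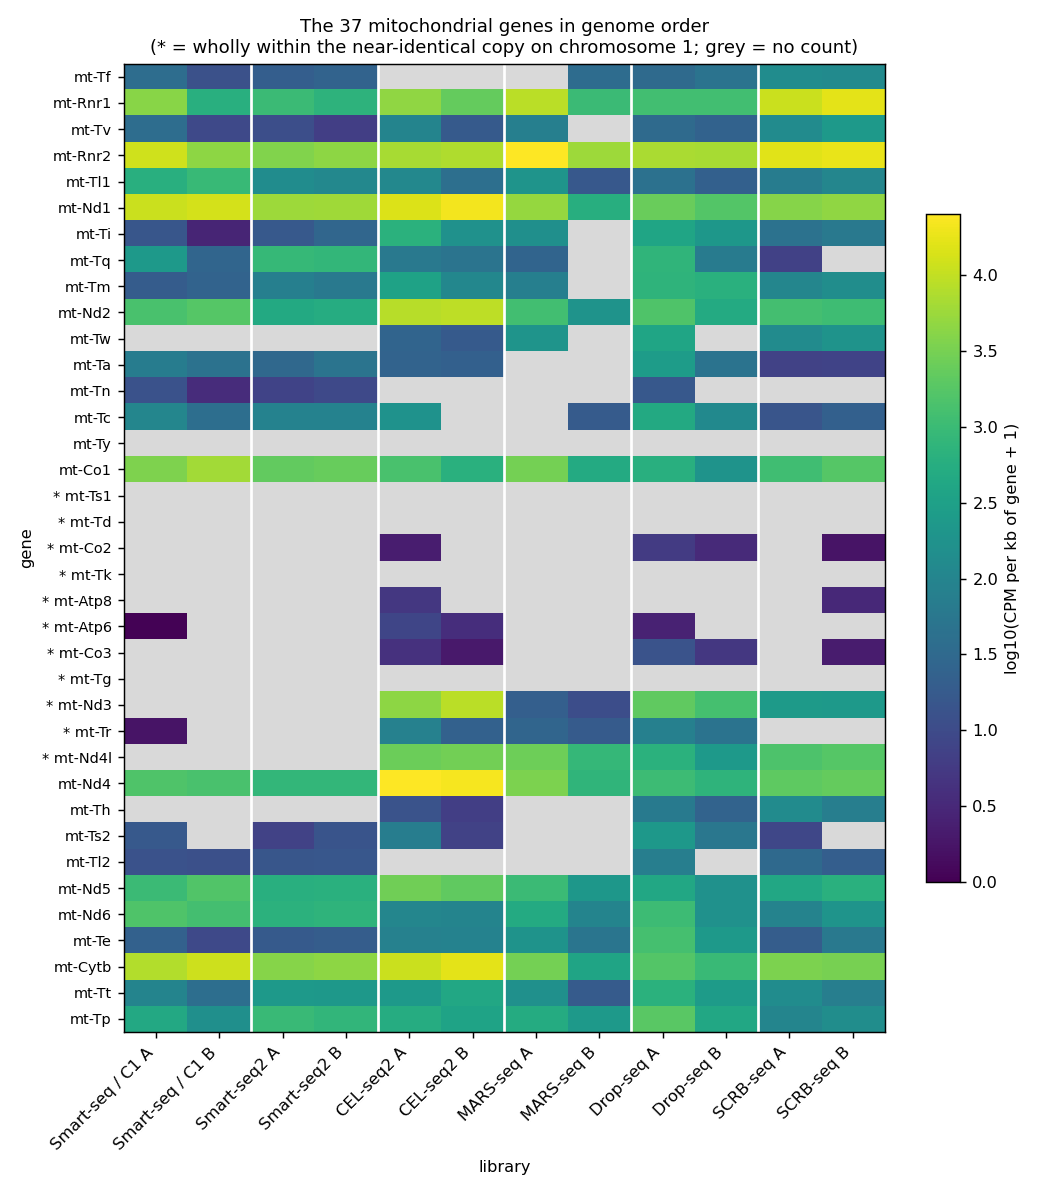
Level of the 37 mitochondrial genes (y axis, in genome order) in the 12 libraries (x axis), coloured by log10 of CPM per kilobase plus 1. The asterisked genes lie wholly within the stretch that has a near-identical copy on chromosome 1, and of these only mt-Nd3 and mt-Nd4l have more than 9 counts in any library.

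Most of the genes with few or no counts lay close together on the genome. 4 protein-coding genes, mt-Co2, mt-Atp8, mt-Atp6 and mt-Co3, had at most 9 counts in any library, and the 5 tRNA genes mt-Ty, mt-Ts1, mt-Td, mt-Tk and mt-Tg had none in any of the 583 cells. For such a gene, 0 of 583 cells allows up to 0.515% of cells with a count, as reads were counted here. In the full-length libraries mt-Nd3 and mt-Nd4l were also at 0, against 3 to 8355 counts of mt-Nd3 and 43 to 2286 counts of mt-Nd4l per tag library. A count of 0 among the 103253205 full-length counts allows up to 0.0291 CPM, by a floor of 3 counts over the 4 libraries. These limits cover counting error only, and bound counts as the authors made them, not transcripts.

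The mouse reference holds a nuclear copy of the place where all of these genes but mt-Ty lie. In GRCm38, the assembly also called mm10, chr1:24611535-24616184 on the minus strand matches chrM:6394-11042 over 4649 mitochondrial bases with 99.957% identity and 2 differences. Over the whole mitochondrial genome of 16299 bases, 41.1% of the 31-base words were also found in a nuclear chromosome, in 37 blocks. 11 of the 37 genes lie wholly within the long copy: the protein-coding genes mt-Co2, mt-Atp8, mt-Atp6, mt-Co3, mt-Nd3 and mt-Nd4l, and 5 tRNA genes. Together they held 2 counts in the 4 full-length libraries and 17876 counts, which were 2.47% of the mitochondrial counts, in the 8 tag libraries. The 9 genes with no 31-base word in the nucleus all had counts in both kinds of library. A further 5 genes, all tRNA genes, lie outside the long copy with every word nuclear. Of these, 2 had counts in the full-length libraries, 198 together, and 4 had counts in the tag libraries, 257 together. How reads that match both places were counted is not given in the sources used here, and the part of shared sequence in these counts was not tested.

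The ends of the genes show how the shared sequence falls. The lines below give the last 60 bases of protein-coding genes from the mitochondrial plus strand, 5′ to 3′, in GRCm38.p6. Where the reads of the tag methods fall relative to these bases was not looked at. Capitals mark bases within a 31-base word that is also nuclear, where a word may run past the end of the gene.
mt-Co2 (chrM:7637-7696): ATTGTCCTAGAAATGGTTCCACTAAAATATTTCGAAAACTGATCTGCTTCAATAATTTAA
mt-Nd3 (chrM:9747-9806): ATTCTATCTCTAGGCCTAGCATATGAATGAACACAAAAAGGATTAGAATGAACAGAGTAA
mt-Nd4l (chrM:10114-10173): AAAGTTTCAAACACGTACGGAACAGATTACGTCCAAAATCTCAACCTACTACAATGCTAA
mt-Co1 (chrM:6813-6872): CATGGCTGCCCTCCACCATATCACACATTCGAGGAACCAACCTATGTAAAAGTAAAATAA
mt-Nd4 (chrM:11485-11544): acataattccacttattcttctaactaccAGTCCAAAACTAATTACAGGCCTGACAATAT
mt-Nd1 (chrM:3648-3707): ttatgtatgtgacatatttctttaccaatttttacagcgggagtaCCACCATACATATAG
The ends of mt-Co2, mt-Nd3, mt-Nd4l and mt-Co1 are shared throughout. mt-Co1 enters the copy with 479 of its 1545 bases, at its 3′ end, and every 31-base word of its last 100 bases is nuclear. mt-Nd4 lies in it with 876 of its 1378 bases, at its 5′ end, and 1.43% of the words of its last 100 bases are nuclear. mt-Nd1 has no nuclear word within the gene.

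The copies differ at 2 places. The first is a substitution, written T9461C with the mitochondrial base first and its position counted from 1 at the start of the mitochondrial genome, at position 3 of mt-Nd3. The second is a run of A in mt-Tr, of 8 bases in the mitochondrial copy and 9 bases in the nuclear copy. The differing base and the run are in capitals here.
mitochondrial copy at 9461 (chrM:9441-9481, plus strand): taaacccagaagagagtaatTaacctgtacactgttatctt
nuclear copy at 9461 (chr1:24613097-24613137, minus strand): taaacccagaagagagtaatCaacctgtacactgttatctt
mitochondrial copy at 9828 (chrM:9808-9848, plus strand): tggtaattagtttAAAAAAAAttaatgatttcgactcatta
nuclear copy at 9828 (chr1:24612729-24612770, minus strand): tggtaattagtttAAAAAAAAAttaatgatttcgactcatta
mt-Nd3 and mt-Nd4l, the genes of the copy with more than 9 counts in a library, lie on either side of mt-Tr. mt-Tg ends at position 9458, close to the first place, and had no count. Every 31-base word of the last 100 bases of mt-Nd3 and mt-Nd4l is nuclear. The part of the 2 differences in these counts was not tested. mt-Tr itself had at most 7 counts in a library.

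**Figure D3:**
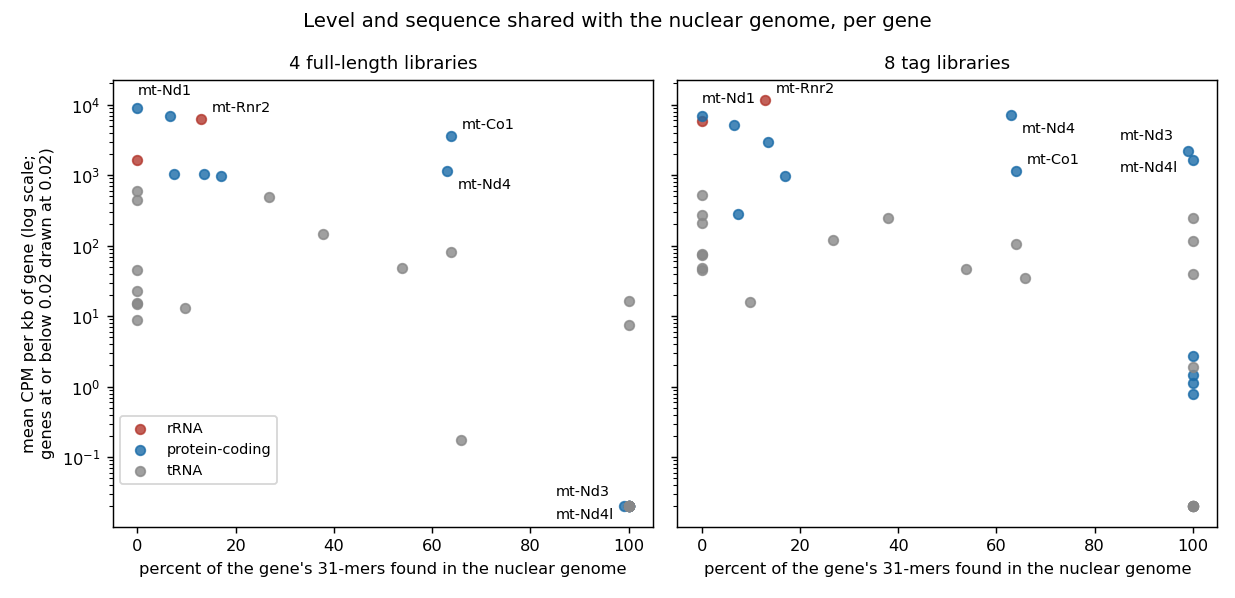
Mean level of each mitochondrial gene in CPM per kilobase (y axis, log scale, with genes at or below 0.02 drawn at 0.02) against the percent of its 31-base words found in the nuclear genome (x axis), for the 4 full-length libraries (left) and the 8 tag libraries (right). mt-Nd3 and mt-Nd4l have 99.1% and 100% of their words nuclear. Both are at the floor in the full-length libraries and among the protein-coding genes with mean levels of over 1000 CPM/kb in the tag libraries. In the tag libraries, where a UMI counts a molecule once, division by length raises short genes such as these.

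Nuclear genes with mitochondrial sequence, most of them annotated as pseudogenes, had counts in the tag libraries. Of the nuclear genes that share most of their 31-base words with the mitochondrial genome, values are at hand for Gm10222 alone. This copy of mt-Nd4l on chromosome 1 had between 0 and 12.5 CPM in the 12 libraries. No values are given for the others, the copies of mt-Nd4, mt-Atp6, mt-Co3, mt-Co2, mt-Nd3 and mt-Co1 on chromosome 1. The level of the long copy as a whole is thus not known here. A further 10 nuclear genes, chosen after their values were seen, share less; 9 are annotated as pseudogenes and Gm20594, closest to mt-Rnr2, as protein-coding. All 11 together amounted to between 0.0170% and 0.0590% of the mitochondrial counts in the 4 full-length libraries, against 11.04% and 11.2% in CEL-seq2 A and B, 14.4% and 14.5% in MARS-seq, 6.57% and 5.75% in Drop-seq and 1.47% and 2.28% in SCRB-seq. Gm13339 on chromosome 2, closest to mt-Nd2, had 0.237 to 1.09 CPM in the full-length libraries, against 7118 and 8956 CPM in CEL-seq2, 413 and 46.9 CPM in MARS-seq, 434 and 184 CPM in Drop-seq and 110 and 119 CPM in SCRB-seq. Gm20594, which gave most of this sum in MARS-seq, had 5469.7 and 1369.5 CPM there and at most 67.1 CPM in any other library. These counts are no part of the mitochondrial values given here.

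The levels of single genes were tested with edgeR's quasi-likelihood test on counts summed per library, fitted over all genes, with Benjamini-Hochberg adjustment and a threshold of 0.05. 25 of the 37 genes passed its filter on low counts and were tested: both rRNA genes, 9 protein-coding genes and 14 tRNA genes. 23 of the 25 differed among the 6 methods, where 65.5% of all 14293 genes tested did. mt-Rnr1 and mt-Tc were not called, with adjusted p of 0.0504 and 0.079. Fold changes below are on the log2 scale, with their standard errors.

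Against the tag methods, 5 mitochondrial genes were higher in the full-length methods, where 25.6% of all genes were, and 8 were lower, where 23.2% of all genes were. The median log2 fold change was -0.87 over the 25 mitochondrial genes and 0.21 over all genes. It was the same with the 3 called genes at 0 in the full-length libraries, mt-Nd3, mt-Nd4l and mt-Tw, taken at their bound. These 3 passed the filter through tag libraries alone and could not be called higher, so their calls are no result of the test. mt-Th was tested and at 0 in the full-length libraries too, and it was not called here. The shares called lie near those of all genes, so the result is in which of the other genes were called. mt-Co1, the catalytic core of complex IV, had 5562 and 9701 CPM in Smart-seq / C1 and 3417 and 3732 CPM in Smart-seq2. In the tag methods it had 2166 and 969.8 CPM in CEL-seq2, 4653 and 766 CPM in MARS-seq, 923 and 287 CPM in Drop-seq and 1733 and 2723 CPM in SCRB-seq. 7 of the 8 tag libraries were below all 4 full-length libraries, MARS-seq A being the exception, and the log2 fold change was 1.76 ± 0.44 (adjusted p 0.00695 by edgeR).

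mt-Nd6, the complex I gene of the minus strand, had 798 and 629.7 CPM in Smart-seq / C1 and 349 and 382 CPM in Smart-seq2. It had 54.6 and 49.0 CPM in CEL-seq2, 254 and 49.2 CPM in MARS-seq, 549 and 87.0 CPM in Drop-seq and 47.4 and 98.1 CPM in SCRB-seq. Drop-seq A was the one tag library within the range of the full-length ones, and the log2 fold change was 2.14 ± 0.46 (adjusted p 0.00311 by edgeR). mt-Cytb was higher by 1.02 ± 0.39 (adjusted p 0.0431), and mt-Tl1 and mt-Tq were higher by 2.22 ± 0.45 and 3.51 ± 0.71 (adjusted p 5.68e-04 and 6.78e-04).

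mt-Nd4 was lower in the full-length methods. It had 2109 and 1868 CPM in Smart-seq / C1 and 1147 and 1149 CPM in Smart-seq2. In the tag methods it had 34607 and 31002 CPM in CEL-seq2, 4820.4 and 1052 CPM in MARS-seq, 1437 and 1005 CPM in Drop-seq and 2858 and 3198 CPM in SCRB-seq. CEL-seq2 stood far above every other library and the other groups overlapped. The log2 fold change was -1.52 ± 0.30 (adjusted p 4.63e-04 by edgeR). mt-Nd3 and mt-Nd4l were called lower with all 4 full-length libraries at 0 (adjusted p 1.47e-10 and 2.25e-10), and so was mt-Tw (adjusted p 8.07e-05). These genes passed the filter on low counts through tag libraries alone and could not be called higher. Their calls thus add nothing to the zeros. Of the rRNA genes, mt-Rnr2 was lower by -0.87 ± 0.33 (adjusted p 0.0391) and mt-Rnr1, at -1.53 ± 0.67, was not called (adjusted p 0.0943). The tRNA genes mt-Te, mt-Tm and mt-Ti were lower, by -2.97 ± 0.62, -2.01 ± 0.56 and -3.41 ± 0.76 (adjusted p 6.69e-04, 0.00638 and 0.00117).

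mt-Nd1, mt-Nd2 and mt-Nd5, further complex I genes, were not called, with adjusted p of 0.0826 for mt-Nd1 and 0.0963 for mt-Nd2. Some calls rested on single libraries. mt-Rnr2 was no longer called without any 1 of 10 of the libraries, all but Smart-seq / C1 A and MARS-seq B, with a highest adjusted p of 0.273 without Smart-seq / C1 B. mt-Cytb was no longer called without any 1 library of Smart-seq / C1, Smart-seq2, CEL-seq2 or SCRB-seq (highest adjusted p 0.291, without Smart-seq / C1 B), nor with DESeq2's size factors (adjusted p 0.0888). mt-Co1 was not called without Smart-seq / C1 B (adjusted p 0.0956), mt-Tm not without MARS-seq A (adjusted p 0.963), and mt-Ti and mt-Tw neither without MARS-seq A (adjusted p 1 each); mt-Tw was also lost without Drop-seq A.

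Between the full-length methods, 1 of the 25 mitochondrial genes was called. Both rRNA genes and the tested protein-coding genes with full-length counts had higher means in Smart-seq / C1. The tRNA genes went both ways. Means of mt-Tp were 20.7 CPM in Smart-seq / C1 and 59.1 CPM in Smart-seq2, and those of mt-Tq 9.49 and 60.7 CPM. mt-Tl1, the leucine tRNA gene next to mt-Rnr2, had 45.7 and 70.2 CPM in Smart-seq / C1 A and B, against 10.4 and 8.45 CPM in Smart-seq2. The groups did not overlap, and the log2 fold change was 2.62 ± 0.70 (adjusted p 0.0172 by edgeR), where 8.76% of all genes were called higher. None of the 25 was called lower in Smart-seq / C1 by edgeR, where 6.82% of all genes were; at an unadjusted p under 0.05, 4 were lower and 2 higher, and DESeq2 called 1 lower and 2 higher. The median log2 fold change was 0.57 over the 25 genes and 0.11 over all genes. The 25 include mt-Nd3, mt-Nd4l, mt-Tw and mt-Th, which were at 0 in both methods and have no fold change of meaning here. mt-Nd1 had 10895 and 12598 CPM in Smart-seq / C1, against 5469 and 5695 CPM in Smart-seq2, and mt-Cytb 8973 and 13417 CPM against 4613 and 5128 CPM. mt-Co1 showed the same order in its values above, and none of these 3 passed the test. The call of mt-Tl1 was lost without Smart-seq / C1 B, Smart-seq2 A or Smart-seq2 B (adjusted p 0.0749, 0.143 and 0.185).

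Among the tag methods, those with in vitro transcription, CEL-seq2 and MARS-seq, were set against those with PCR, Drop-seq and SCRB-seq. 3 complex I genes were higher, where 9.14% of all genes were, and 3 mitochondrial genes were lower, where 12.9% of all genes were. mt-Nd4 was higher by 2.35 ± 0.34 on the log2 scale (adjusted p 1.58e-04 by edgeR), mt-Nd5 by 1.61 ± 0.40 (adjusted p 0.0113) and mt-Nd4l by 1.39 ± 0.36 (adjusted p 0.0133). mt-Nd4l had 775 and 862 CPM in CEL-seq2 and 818 and 254 CPM in MARS-seq, against 192 and 69.3 CPM in Drop-seq and 444 and 514 CPM in SCRB-seq. mt-Nd3, mt-Tf and mt-Th were lower, mt-Nd3 by -1.05 ± 0.36 (adjusted p 0.0457). The fit averages methods on the log scale, and the plain means of mt-Nd3 go the other way, at 1189 CPM in CEL-seq2 and MARS-seq and 341 CPM in Drop-seq and SCRB-seq. mt-Tf and mt-Th had at most 9.30 CPM in any tag library.

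The median log2 fold change of this comparison was -0.03 over the 25 genes and -0.08 over all genes. mt-Nd4 was called without each library in turn. The call of mt-Nd5 was lost without Smart-seq / C1 A, Smart-seq / C1 B, MARS-seq A or SCRB-seq A (highest adjusted p 0.0804), and that of mt-Nd4l without MARS-seq A, SCRB-seq A or Drop-seq B (highest 0.085). mt-Nd3 was lost without either Smart-seq2, MARS-seq or SCRB-seq library, CEL-seq2 A or Drop-seq A (highest 0.251), mt-Tf without either CEL-seq2 or Drop-seq library or MARS-seq A (highest 0.0943), and mt-Th without any 1 of 9 libraries, all but Smart-seq / C1 A and B and SCRB-seq B (highest 0.16).

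CEL-seq2 and MARS-seq themselves differed most in the protein-coding genes. 6 were higher in CEL-seq2, where 11% of all genes were, and none of the 25 was called lower by edgeR or DESeq2, where edgeR called 12.4% of all genes lower; 1 was lower at an unadjusted p under 0.05. mt-Nd3 had 1594 and 3151 CPM in CEL-seq2, against 7.12 and 3.51 CPM in MARS-seq, a log2 fold change of 8.88 ± 0.59 (adjusted p 1.05e-07). mt-Nd4l, which lies in the same nuclear copy, had 775 and 862 CPM against 818 and 254 CPM and was not called. mt-Nd2 had 8939 and 9766 CPM in CEL-seq2, against 1209.6 and 186 CPM in MARS-seq, with a log2 fold change of 3.75 ± 0.73 (adjusted p 0.00297). mt-Nd4 was higher by 3.48 ± 0.51 (adjusted p 9.24e-05), mt-Cytb by 3.06 ± 0.70 (adjusted p 0.00738), mt-Nd1 by 2.71 ± 0.69 (adjusted p 0.0130) and mt-Nd5 by 2.03 ± 0.58 (adjusted p 0.0197).

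In these 6 genes both CEL-seq2 libraries were above both MARS-seq libraries. mt-Rnr1 and mt-Rnr2, at log2 fold changes of -0.50 ± 1.02 and -1.12 ± 0.53, were not called (adjusted p 0.770 and 0.139). The median was 2.03 over the 25 genes and 0.19 over all genes. The calls of mt-Nd2, mt-Nd3 and mt-Nd4 were kept without each library in turn. mt-Nd1 was lost without Smart-seq / C1 A, Smart-seq / C1 B or CEL-seq2 B (highest adjusted p 0.0873), mt-Cytb without Smart-seq / C1 A or Smart-seq / C1 B (highest 0.0628), and mt-Nd5 without either Smart-seq / C1 or CEL-seq2 library or MARS-seq B (highest 0.116).

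Drop-seq and SCRB-seq differed in 4 mitochondrial genes, all higher in Drop-seq, where 1.03% of all genes were. None of the 25 was called lower by edgeR, where 0.483% of all genes were; 5 were lower and 11 higher at an unadjusted p under 0.05, and DESeq2 called 1 lower and 8 higher. mt-Nd3 had 756 and 438 CPM in Drop-seq, against 87.7 and 82.9 CPM in SCRB-seq, a log2 fold change of 2.81 ± 0.40 (adjusted p 0.00253 by edgeR). The tRNA genes mt-Tp, mt-Te and mt-Tq were higher by 3.26 ± 0.69, 4.27 ± 1.003 and 6.99 ± 1.53 (adjusted p 0.0249, 0.0393 and 0.0318). mt-Rnr1 and mt-Rnr2 had their lower values in Drop-seq and did not overlap between the methods, but at -3.59 ± 1.13 and -1.30 ± 0.53 they were not called (adjusted p 0.159 and 0.212). The median was -0.16 over the 25 genes and -0.09 over all genes. All 4 calls were lost without SCRB-seq A, SCRB-seq B or Drop-seq A, where the highest adjusted p was 0.113 for mt-Nd3, 0.365 for mt-Tp, 0.460 for mt-Te and 0.416 for mt-Tq. mt-Te was also lost without Drop-seq B, CEL-seq2 B or either Smart-seq2 library.

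The genes of the minus strand took a share of their own. 9 of the 37 genes, mt-Nd6 and 8 tRNA genes, are read from that strand. They gave 1.57% and 1.28% of the mitochondrial counts in Smart-seq / C1 A and B and 2.05% and 1.97% in Smart-seq2. They gave 0.119% and 0.0804% in CEL-seq2 A and B, 0.429% and 0.508% in MARS-seq, 3.70% and 0.864% in Drop-seq and 0.112% and 0.185% in SCRB-seq. All 7 minus-strand genes with a count in the tag libraries were highest in Drop-seq A among those libraries, as were 7 of the 25 plus-strand genes with a count. Whether strand was used in counting is not given in the sources used here, and without it a minus-strand gene and the precursor of the other strand across it cannot be told apart.

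**Figure D4:**
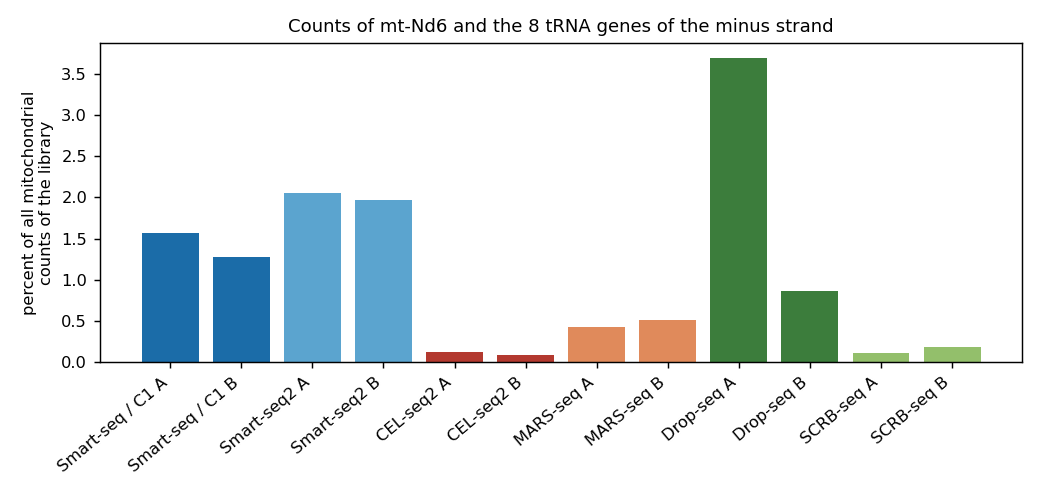
Counts of mt-Nd6 and the 8 minus-strand tRNA genes as a percent of all mitochondrial counts (y axis) in each of the 12 libraries (x axis). Drop-seq A is highest at 3.70%, the 4 full-length libraries lie between 1.28% and 2.05%, and the other 7 tag libraries lie at or below 0.864%.

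The tRNA genes were the least counted class, and a few of them made up most of it. The 8 with the highest mean level were mt-Tp (36.7 CPM over the 12 libraries), mt-Tq (17.4 CPM), mt-Tl1 (14.96 CPM), mt-Tt (14.4 CPM), mt-Tm (13.4 CPM), mt-Te (11.9 CPM), mt-Ti (9.92 CPM) and mt-Tc (6.34 CPM), for proline, glutamine, leucine, threonine, methionine, glutamate, isoleucine and cysteine. Of the other 14, 5 had no count, and the highest of their means was 5.20 CPM, for mt-Tw. These means run over read and UMI libraries alike, and those of mt-Te and mt-Tl1 came mostly from Drop-seq A and from Smart-seq / C1. The sequences below are those of 5 of the tRNA genes called in a comparison, shown because some hold no nuclear word and some are nuclear throughout. They are given 5′ to 3′ on their own strand in GRCm38.p6, with bases in a 31-base word that is also nuclear in capitals.
mt-Tp (chrM:15356-15422, minus strand): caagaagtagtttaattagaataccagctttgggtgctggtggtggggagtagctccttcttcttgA
mt-Tq (chrM:3772-3842, minus strand): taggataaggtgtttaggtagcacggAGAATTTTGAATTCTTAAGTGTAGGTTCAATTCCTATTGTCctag
mt-Te (chrM:14071-14139, minus strand): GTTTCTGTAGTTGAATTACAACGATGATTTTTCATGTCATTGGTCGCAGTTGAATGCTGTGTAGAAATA
mt-Tl1 (chrM:2676-2750, plus strand): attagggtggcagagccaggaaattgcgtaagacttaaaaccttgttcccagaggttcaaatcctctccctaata
mt-Tw (chrM:4950-5016, plus strand): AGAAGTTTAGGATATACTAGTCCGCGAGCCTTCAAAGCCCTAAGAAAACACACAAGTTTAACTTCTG
mt-Tl1 has no nuclear word and was highest in Smart-seq / C1, while mt-Tw is nuclear throughout and had no count in the full-length libraries, 0 to 26.2 CPM in the tag libraries. mt-Te is nuclear throughout too, and had counts in all 12 libraries.

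In single libraries the tRNA genes went their own ways. mt-Tp had 30.9 and 10.6 CPM in Smart-seq / C1, 64.3 and 53.8 CPM in Smart-seq2, 36.1 and 23.8 CPM in CEL-seq2, 33.8 and 16.4 CPM in MARS-seq, 126 and 29.0 CPM in Drop-seq and 6.64 and 9.72 CPM in SCRB-seq. mt-Tq had 17.1 and 1.83 CPM in Smart-seq / C1, 62.2 and 59.2 CPM in Smart-seq2 and 53.6 and 4.83 CPM in Drop-seq, and at most 4.20 CPM in the other 6 libraries. mt-Te had 88.6 and 16.1 CPM in Drop-seq, 12.5 CPM in MARS-seq A and at most 6.04 CPM elsewhere. Drop-seq A was thus high in these 3 minus-strand genes. mt-Ti, a plus-strand gene, had 0.126 to 1.90 CPM in the full-length libraries, against 44.5 and 11.7 CPM in CEL-seq2 and 26.2 and 14.5 CPM in Drop-seq. mt-Tm had 51.4 and 43.5 CPM in Drop-seq and at most 23.5 CPM elsewhere, and mt-Tt had its highest values, 15.95 and 29.8 CPM in CEL-seq2 and 43.7 and 17.7 CPM in Drop-seq, in those methods.

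In single cells thinned to 10000 counts each, the abundant genes were seen in nearly every cell. mt-Rnr2 had a count in all 583 cells, mt-Nd4 in 582, mt-Rnr1 in 581, mt-Nd1 in 577, mt-Cytb in 575, mt-Co1 in 570, mt-Nd5 in 564 and mt-Nd2 in 561. mt-Nd6 was seen in 437 thinned cells (526 before thinning), and the libraries ranged between all 69 cells of Smart-seq / C1 A and 10 of 37 cells of CEL-seq2 B (31 before thinning). mt-Nd3 was seen in every cell of both CEL-seq2 libraries and of Drop-seq A and in 29 of 34 cells of Drop-seq B. It was seen in 3 of 29 and 1 of 36 cells of MARS-seq A and B (4 and 3 before thinning) and in 21 of 39 and 27 of 45 cells of SCRB-seq A and B (38 and 43 before thinning). It was seen in 0 of 287 full-length cells, thinned or not. With a count of 0 in a gene of the nuclear copy, this sets no limit on the cells that hold the transcript. mt-Nd4l was seen in 12 of 34 cells of Drop-seq B and in 43 of 45 cells of SCRB-seq B (18 and 45 before thinning). Of the tRNA genes mt-Tp was seen most often, in 175 cells (412 before thinning), among them 27 of the 42 cells of Drop-seq A. Mitochondrial genes are expressed in every cell type, so no type that lacks them was at hand as a background for these shares.

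On average over the methods, most of the mitochondrial genes tested varied more among cells of a library than other genes of like abundance, though not in every library. The measure is the squared coefficient of variation among cells above its trend on the mean over all genes, on the log2 scale, tested with limma over 2642 genes. Of the 9 mitochondrial genes tested, 8 varied more, where 2.23% of all genes did, and none less, where 2.20% of all genes did; at an unadjusted p under 0.05 all 9 lay above the trend, and no second tool was run. mt-Rnr1 stood 1.62 ± 0.15 above the trend (adjusted p 1.36e-08) and in 11 of 12 libraries, and mt-Rnr2 1.18 ± 0.16 (adjusted p 1.96e-05) in 10 libraries. mt-Nd4 stood 0.90 ± 0.15 above it, mt-Cytb 0.86 ± 0.13, mt-Nd1 0.77 ± 0.16, mt-Nd5 0.72 ± 0.14, mt-Nd2 0.61 ± 0.11 and mt-Co1 0.50 ± 0.12. Of the 12 libraries, mt-Nd2 lay above the trend in 11, mt-Nd4, mt-Cytb and mt-Nd5 in 10 each, mt-Nd1 in 8 and mt-Co1 in 7, and the lowest value was -1.20, for mt-Nd1. mt-Nd6, at 0.25 ± 0.11, was not called (adjusted p 0.198). The median was 0.77 over the 9 genes and -0.01 over all genes. Of the 9, 8 are among the 38 genes with the highest mean, where the trend rests on few genes. The shares of all genes run over all 2642, most of them with lower means. Counts of the mitochondrial genes also went together among cells in many libraries, as given below, so the 8 calls are not independent results.

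**Figure D5:**
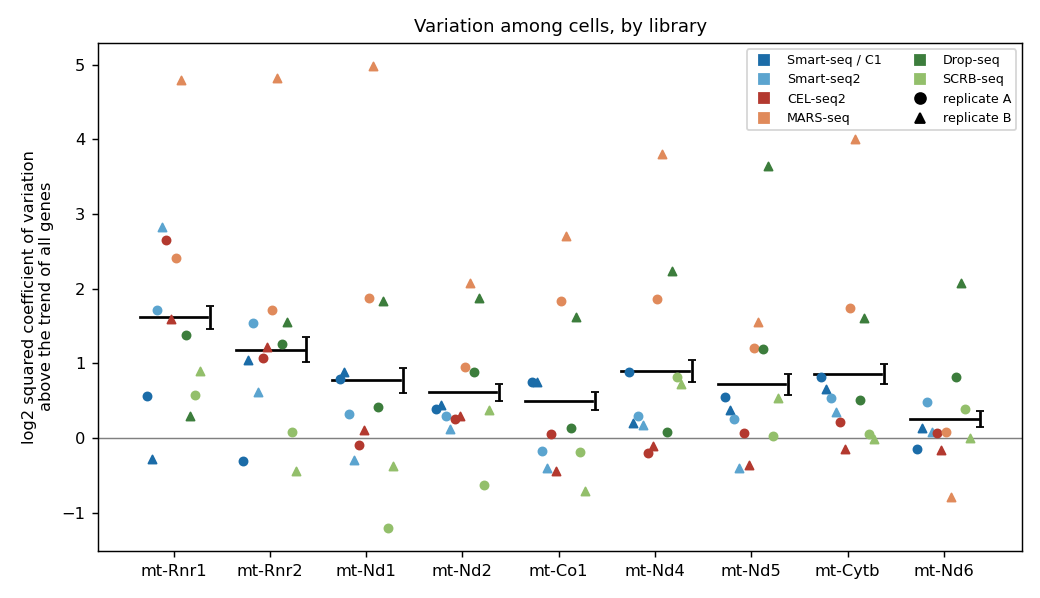
Variation among cells of 9 mitochondrial genes (x axis), as the log2 squared coefficient of variation above the trend of all genes (y axis), with a point for each library and a bar for the mean over methods with its standard error at the bar's right end. MARS-seq B is the highest library for mt-Rnr1, mt-Rnr2, mt-Nd1, mt-Nd2, mt-Co1, mt-Nd4 and mt-Cytb, up to 4.98 for mt-Nd1, and SCRB-seq lies near or below 0 for most genes.

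The cells of MARS-seq B carry much of that height. 1 of its 36 cells held 13.2% of its counts in mitochondrial genes, 16.8 times the median of the library, and the next highest cell held 2.91%. It had 24020 counts, near the library's median of 25636.5, and gave 26.8% of the library's mitochondrial counts. Without it the summed mitochondrial share of MARS-seq B was 0.930%, against 1.24% with it, and mt-Nd1 no longer passed the test of variation (0.35, adjusted p 0.133). mt-Co1 was no longer called without SCRB-seq A (adjusted p 0.0536) nor without MARS-seq B and Drop-seq B together (adjusted p 0.0642), and the other 6 calls held in every such setting. Without that cell mt-Nd1 between CEL-seq2 and MARS-seq, and mt-Cytb and mt-Rnr2 between the full-length and tag methods, were not called either (adjusted p 0.0715, 0.109 and 0.0710).

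The coefficient of variation of mt-Rnr2 among thinned cells was 31.4% and 46.9% in Smart-seq / C1 A and B and 47.1% and 36.3% in Smart-seq2. Among the tag libraries it was 37.1% and 35.5% in CEL-seq2 A and B, 59.4% and 151% in MARS-seq A and B, 35.98% and 41.2% in Drop-seq and 22.1% and 19.9% in SCRB-seq. Counting error alone would give between 5.49% and 12.5%. SCRB-seq cells were the most alike in this gene, and MARS-seq cells the least. In MARS-seq A the total mitochondrial share ran between 0.881% and 13.8% across its 29 cells, and in SCRB-seq A between 2.92% and 6.34% across 39.

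Cells with a high share of counts in the mitochondrial rRNA genes also had a high share in the protein-coding genes in most libraries. Spearman's rho between the rRNA and protein-coding shares of a cell was 0.862 in MARS-seq A (29 cells), 0.824 in Smart-seq / C1 B (61 cells) and 0.786 in MARS-seq B (36 cells). It was 0.148 in Smart-seq2 B (77 cells) and -0.042 in Drop-seq A (42 cells), with the other 7 libraries between 0.367 and 0.719. The 2 rRNA genes went together in every library, with rho between 0.411 in CEL-seq2 B and 0.879 in MARS-seq A. Over the 21 pairs of 7 protein-coding genes, the median rho was 0.744 in MARS-seq A, 0.514 in Smart-seq / C1 B and 0.454 in Smart-seq / C1 A, and 0.171 and 0.032 in SCRB-seq B and A. Cells of a library share its preparation, shares of 1 total are not independent of each other, and weakly counted genes lower rho, so these values are descriptions. The rho of a cell's mitochondrial share with its total counts was between -0.426 in Smart-seq2 B and 0.499 in SCRB-seq A.

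Nuclear genes that copy, process, stabilise or translate mitochondrial RNA were looked at beside them, as a list of 49 symbols. Of these, 47 had a row in the table, and all 47 were tested. Against the tag methods, 18 were higher in the full-length methods, where 25.6% of all genes were, and 1 was lower, where 23.2% of all genes were. Fastkd2, which binds the 16S rRNA and helps to build the mitochondrial ribosome, had 138 ± 78.5 CPM in full-length libraries (SD, n = 4) and 30.0 ± 8.36 CPM in tag libraries (SD, n = 8), a log2 fold change of 2.06 ± 0.25 (adjusted p 1.89e-06 by edgeR). Tufm, the mitochondrial elongation factor Tu, was the one that was lower, by -2.02 ± 0.27. Tfam, which packs mitochondrial DNA and starts its transcription, was higher by 0.51 ± 0.19. Between Smart-seq / C1 and Smart-seq2, 3 were higher and 1 lower, where 8.76% and 6.82% of all genes were. Among them Grsf1 of the mitochondrial RNA granules was higher by 1.28 ± 0.35, and Fastk, known for keeping ND6 mRNA, was lower by -2.09 ± 0.44. Between CEL-seq2 with MARS-seq and Drop-seq with SCRB-seq, Lrpprc was higher by 1.15 ± 0.27 and Slirp, its partner in protecting mitochondrial mRNAs, was lower by -1.99 ± 0.34, the 1 call in each direction, where 9.14% and 12.9% of all genes were called. Between CEL-seq2 and MARS-seq, 3 were higher and 2 lower, where 11% and 12.4% of all genes were, among them Lrpprc by 2.29 ± 0.39 and Tufm by -2.22 ± 0.43. Between Drop-seq and SCRB-seq edgeR called none of them, where 1.03% of all genes were higher and 0.483% lower, also with DESeq2's size factors, and at an unadjusted p under 0.05 none was higher and 6 were lower.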

How the data were processed

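The 583 cells fall into 12 libraries by the method and letter in the labels, and the library is the unit. The authors deposited 1 table of raw counts, in which the tag methods have UMI counts and Smart-seq / C1 and Smart-seq2 have whole numbers, taken as read counts. Per the submitters' processing notes, the UMI counts came from the Drop-seq pipeline with STAR at default settings and gene exon tags. Per the labels, STAR 2.4.0, bcl2fastq and mm10 were used. The counter of the Smart-seq reads, its annotation, strand and handling of reads with several matches are not given in the sources used here. All columns were mapped, 0 were left out.

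Symbols and coordinates came from GENCODE M21 (37607 identifiers matched). Counts were summed per library, scaled by TMM and fitted with edgeR 4.0.16 (filterByExpr by method, robust quasi-likelihood, 1 mean per method, Benjamini-Hochberg over 14293 genes). CPM are TMM-scaled, and the 92 spike-ins stay out of totals. DESeq2 1.42.0 was an alternative; the closing section gives the effect of all of them. Variation among cells was tested with limma 3.58.1 on the log2 CV2 (the square of the coefficient of variation) less its loess trend, in cells thinned to 10000 counts, with a mean of 0.2 or more required in every library. Shared sequence was found by 31-base words of the GRCm38.p6 mitochondrial genome on both strands of the nuclear chromosomes. All cells were kept, without a doublet caller, though 4 cells of SCRB-seq A, 2 of SCRB-seq B and 4 of Drop-seq A passed 2 times the median count of their library. The scripts were checked on simulated data.

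The members and lists were chosen with earlier results of these data known. All rRNA and protein-coding genes and the 8 tRNA genes with the highest mean are named; from the list of nuclear genes, the 2 smallest p and the highest mean per comparison among those called. mt-Tw, mt-Tf, mt-Th, mt-Tr, the tRNA genes at 0 and nuclear genes beyond Gm10222 are named outside this rule, after their values were seen. Depth sets the precision: 3 counts, the limit that a count of 0 allows, are 0.0291 CPM over the full-length and 0.259 CPM over the tag libraries.

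The letters A and B are shared by the methods. Same-lettered libraries did not deviate together in any of 15 pairs of methods, with correlations of their deviations between -0.0839 and 0.0781, so the letters were not taken as pairs.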

Additional observations from a re-analysis of the deposited data

Results flagged for a closer look

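Each named gene was looked at for a library far from the others of its kind. The 4 full-length and the 8 tag libraries of a gene were taken apart as groups. Groups averaging at most 3 counts per library were left out, which leaves 36 groups. The cut-off would flag about 1 in 20 groups by chance if the values of a group came from 1 normal distribution. Groups that mix methods do not meet this, and the genes are not independent, so the chance rate here is not known. 7 stood out. In the full-length libraries, Smart-seq / C1 A was far above the other 3 in both rRNA genes. mt-Rnr1 had 4008 CPM there and 944 CPM in the next library, and mt-Rnr2 had 19062 CPM there and 7129.6 CPM in the next. Among the tag libraries, Drop-seq A was far above the other 7 in 5 genes, all of the minus strand. mt-Nd6 had 549 CPM there and 254 CPM in the next library, mt-Tp 126 and 36.1 CPM, mt-Tq 53.6 and 4.83 CPM, mt-Te 88.6 and 16.1 CPM, and mt-Tc 31.7 and 11.8 CPM. In Drop-seq A, 29 of 42 barcodes lay within 1 base of another, against 12 of 34 in Drop-seq B, and the part of that in these values was not tested.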

How the results depend on the processing

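No direction turned under any setting tried. The alternatives were DESeq2's size factors, no filter on low counts, DESeq2's test, totals and scaling from nuclear genes alone, the letters as a replicate block, each library left out in turn, and, for variation and shares, a wider trend, thinning to 5000 counts, joined Drop-seq barcodes and no cells above 2 times the median count. Chosen after seeing the data were leaving out the MARS-seq B cell of 13.2%, and MARS-seq B with Drop-seq B. Between Smart-seq / C1 and Smart-seq2 the 1 called gene became 5 without the filter, 3 with DESeq2's test and 3 with the replicate block, and 0 to 4 with a library left out. Between Drop-seq and SCRB-seq the 4 called genes became 8 without the filter and 9 with DESeq2's test, and 0 to 5 with a library left out. With a library left out, the 6 calls of CEL-seq2 and MARS-seq against Drop-seq and SCRB-seq became 2 to 8, and the 6 of CEL-seq2 against MARS-seq 3 to 9. In the paired analysis, the replicate block gave 24 genes differing among methods, 14 between full-length and tag methods, 4 and 6 in the comparisons just named, 3 between Drop-seq and SCRB-seq, and 8 in variation among cells. Under it mt-Cytb, mt-Nd3, mt-Th and mt-Te lost 1 call each (adjusted p 0.0529, 0.0551, 0.0555 and 0.0680). The calls kept under every setting were mt-Nd3, mt-Nd4, mt-Nd4l, mt-Nd6, mt-Te, mt-Tl1 and mt-Tq between full-length and tag methods, mt-Nd4 between the amplifications, and mt-Nd2, mt-Nd3 and mt-Nd4 between CEL-seq2 and MARS-seq. Those of mt-Nd3 and mt-Nd4l between full-length and tag methods could not turn, as both were at 0 in the full-length libraries. With spike-ins counted in the total, the shares were 0.760% for rRNA and 1.76% for protein-coding genes in Smart-seq2, 7.78% for protein-coding genes in CEL-seq2 and 1.40% in SCRB-seq. From summed counts, they were 1.99% for protein-coding genes in Smart-seq2, 1.40% and 1.23% for rRNA in CEL-seq2 and Drop-seq, and 0.00578% and 0.00793% for tRNA in MARS-seq and SCRB-seq; the tRNA share of SCRB-seq was 0.00671% with spike-ins and 0.00748% without cells above 2 times the median. DESeq2's size factors shifted the median of all genes by -0.14 (full-length against tag), -0.18 (CEL-seq2 against MARS-seq) and 0.20 (Drop-seq against SCRB-seq), and nuclear totals by 0.21 (full-length against tag), where mt-Rnr2 was then not called (adjusted p 0.104). Nuclear totals also ended the call of mt-Nd3 between the amplifications (0.0614), no filter those of mt-Cytb (0.0630) and mt-Th (0.0717), DESeq2's size factors that of mt-Cytb (0.0888), and DESeq2's test that of mt-Th (0.0628). The causes were not tested. With 1 library left out its method rests on a lone library, taken to vary like the others.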

Other observations

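The ratio of mt-Rnr2 to mt-Rnr1 counts, summed over a library, was lower in A than in B for 4 methods: 4.76 and 12.4 for Smart-seq / C1, 6.34 and 10.7 with Smart-seq2, then 2.39 and 5.46 with CEL-seq2, and 4.78 and 9.44 with MARS-seq. For Drop-seq it was 10.2 and 9.30 and for SCRB-seq 2.38 and 1.75. Of the tRNA counts, the 8 minus-strand genes gave 50.3% and 19.7% in Smart-seq / C1 A and B and 79.1% and 78.9% with Smart-seq2, 34.8% and 38.02% in CEL-seq2 A and B, 44.3% and 78.3% in MARS-seq A and B (of 61 and 23 tRNA counts), 63.5% and 40.4% in Drop-seq, and 13.3% and 18.4% in SCRB-seq. No test was made of these values.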
